A study of Mus musculus with 21 samples.

Results

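The stathmins are small phosphoproteins that regulate the microtubule cytoskeleton, and the 4 members of the family in the mouse, Stmn1, Stmn2, Stmn3 and Stmn4, were followed by RNAseq in the neocortex of mice that express cytoplasmic TDP-43 in neurons. The rows of the count table that carry these 4 symbols were taken, which are 4 of 48474 rows, and all 4 passed the filter on low counts that 18248 genes passed. The 21 libraries came from 11 mice labelled WT and 10 mice labelled TG. TG mice are bigenic rNLS8 mice, in which NEFH-tTA, driven by the promoter of the neurofilament heavy chain and therefore active mainly in neurons, switches on tetO-hTDP-43ΔNLS, a human TDP-43 without a functional nuclear localization signal. WT mice were monogenic control littermates. All mice of both groups had received a non-targeting antisense oligonucleotide (ASO) in the cerebral ventricle (350 µg in 10 µL) at 17 to 19 weeks of age. The diet of all mice contained doxycycline (200 mg/kg), which represses the transgene, until 2 weeks after the injection, and neocortex was taken after 3 weeks of induction. Batch A held 4 WT and 3 TG mice and batch B held 7 WT and 7 TG mice, each library being a separate mouse. The comparison of TG with WT asks which cortical transcripts change when TDP-43 accumulates outside the nucleus of neurons.

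Each stathmin binds a pair of tubulin dimers, which keeps them from the growing microtubule and favors disassembly, and phosphorylation lowers this activity. Stmn1 is cytosolic and is also expressed outside the nervous system. Stmn2 (SCG10), Stmn3 (SCLIP) and Stmn4 (RB3) are largely neuronal and carry an N-terminal extension with cysteines that are palmitoylated, which attaches them to Golgi membranes and vesicles. Stmn2 is enriched in growth cones and is known as a factor of axon growth and maintenance. Human STMN2 is a known target of TDP-43, since loss of nuclear TDP-43 lets a cryptic exon into its transcript, whereas the mouse gene lacks the corresponding exon. The counts are per gene, so which exons the reads came from was not measured here.

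The extension that separates Stmn1 from the other members is visible at the start of their coding sequences. The first 90 bases from the start codon are given 5′ to 3′ for each gene, because this stretch shows how the members differ, with cysteine codons in capitals. They were read from GENCODE release M21 transcripts (GRCm38) that match RefSeq.
Stmn1: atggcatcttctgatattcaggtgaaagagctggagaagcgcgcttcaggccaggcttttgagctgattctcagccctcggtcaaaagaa
Stmn2: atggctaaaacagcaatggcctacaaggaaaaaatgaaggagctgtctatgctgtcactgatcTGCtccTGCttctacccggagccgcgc
Stmn3: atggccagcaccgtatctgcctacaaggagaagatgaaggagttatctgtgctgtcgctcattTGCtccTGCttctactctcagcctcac
Stmn4: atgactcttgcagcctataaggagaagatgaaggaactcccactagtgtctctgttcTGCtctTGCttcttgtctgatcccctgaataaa
Stmn1 has 0 cysteine codons in its whole coding sequence. Stmn2 and Stmn3 have them at codons 22 and 24, and Stmn4 at codons 20 and 22, in each case as a pair with a single serine codon between them. Stmn4 has 6 cysteine codons in all. Identity between the coding sequences of any pair ranged from 68.4% (Stmn3 and Stmn4) to 73.5% (Stmn2 and Stmn3) of aligned bases.

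On GRCm38.p6, Stmn1 lies on the plus strand at chr4:134468320-134473843 and encodes 149 amino acids in a transcript of 1060 bases. Stmn2 lies on the plus strand at chr3:8509527-8561604, with a transcript of 2073 bases for 179 amino acids. Stmn3 is on the minus strand at chr2:181306459-181314500, with 1136 bases and 180 amino acids. Stmn4 is on the plus strand at chr14:66344210-66361680, with 1281 bases and 216 amino acids in the transcript used here, which has 7 exons against 5 in each of the others. No stretch of 100 bases, the read length, of the Stmn2, Stmn3 or Stmn4 transcript occurred in a transcript of another gene. For Stmn1, 251 of 961 such stretches (26.1%) also occurred in Gm11223, which was not analysed here, so the share of Stmn1 reads that could be placed in either gene is uncertain.

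The libraries held between 20700912 and 22263809 counts on genes, and the 4 stathmins had between 3124 and 11817 counts in every library. At an adjusted p under 0.05 in edgeR's quasi-likelihood test with batch as covariate, 21.7% of the genes tested were lower and 23.0% were higher in TG mice. Tardbp, the row for TDP-43 and the check of the labels, had 2253 to 2827 normalized counts in the WT libraries and 2363 to 5053 in the TG libraries, and how far the human transgene contributes to this mouse row is not known. It was above every WT library in 9 of 10 TG libraries. The exception was the library labelled T61340 of batch A, whose 2363 normalized counts lay within the WT range. In batch A alone the Tardbp log2 fold change was 0.26 (adjusted p = 0.191, edgeR), and in batch B it was 0.79 (adjusted p = 1.42e-10, edgeR). This library and T60303, also TG and of batch A, stood at opposite ends of the TG group for several stathmins, and results that rest on them are given with and without both.

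Stmn1, Stmn2 and Stmn3 were lower in TG than in WT neocortex, and Stmn4 did not pass the test. In the fit, Stmn1 fell by 34.0%, Stmn2 fell by 25.7% and Stmn3 fell by 11.1%. Thus 3 of the 4 genes passed the test in this direction, where 21.7% of all genes tested did. In these bulk samples, fewer neurons and less RNA per neuron cannot be told apart.

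Stmn1, the cytosolic member, had 9921 (lowest), 11035 (median) and 12162 (highest) normalized counts in the 11 WT libraries. In the 10 TG libraries it had 6138 (lowest), 7209 (median) and 8555 (highest) normalized counts. The groups did not overlap, as every TG library was below every WT library, which was the case for 3.80% of the genes tested. The means were 11096 ± 710 (SD, n = 11) in WT and 7338 ± 766 (SD, n = 10) in TG mice. The log2 fold change was -0.60 (standard error 0.055, 95% confidence interval -0.71 to -0.49, adjusted p = 4.05e-09, edgeR). Of all genes tested, 3.13% had a lower log2 fold change than Stmn1.

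Stmn2, the growth cone member, had 5145, 6010 and 6494 normalized counts as the lowest, median and highest WT library. The corresponding values in the TG libraries were 3614, 4335 and 5182. The groups overlapped by a single pair of libraries, T61333 (WT) at 5145 and T61340 (TG) at 5182 normalized counts, and the other 9 TG libraries were below every WT library. Means were 5959 ± 352 (SD, n = 11) and 4433 ± 442 (SD, n = 10), with a difference of -0.43 on the log2 scale (standard error 0.052, 95% confidence interval -0.54 to -0.32, adjusted p = 3.71e-07, edgeR).

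Stmn3, which like Stmn2 is a membrane-bound neuronal member, had 6184, 7000 and 8717 normalized counts as the lowest, median and highest WT library. The TG libraries had 5282, 6016 and 9018. Of these, 7 were below every WT library, while T61340 at 9018 was above all of them. Means were 7116 ± 750 (SD, n = 11) and 6265 ± 1044 (SD, n = 10), with a difference of -0.17 on the log2 scale (standard error 0.057, 95% confidence interval -0.29 to -0.05, adjusted p = 0.0176, edgeR). Already in WT mice, Stmn3 was at 7850 ± 649 (SD, n = 4) normalized counts in batch A but 6696 ± 403 (SD, n = 7) in batch B. Without batch as covariate its log2 fold change was -0.18 and the adjusted p was 0.0594 (edgeR), and with scaling by library size only these were -0.094 and 0.149.

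Stmn4, the remaining neuronal member, had 3321, 3615 and 4144 normalized counts as the lowest, median and highest WT library. The TG libraries had 3015, 3478 and 4314. The groups overlapped widely, with 3 TG libraries below and 1 above all WT libraries. Means were 3699 ± 231 (SD, n = 11) and 3545 ± 387 (SD, n = 10), giving -0.06 on the log2 scale (SE 0.055, adjusted p = 0.372, edgeR). The 95% confidence interval reached from -0.18 to 0.05.

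**Figure D1:**
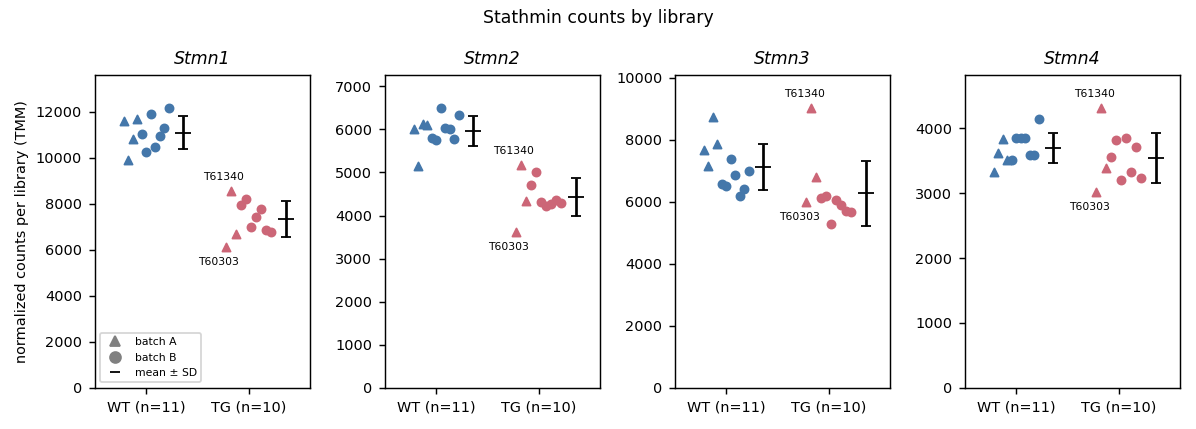
Normalized counts (vertical axis, from 0) of each stathmin in the 11 WT and 10 TG libraries. Triangles are batch A, circles are batch B, and the bars give mean ± SD. The TG libraries of Stmn1 lie between 6138 and 8555, all below the lowest WT library at 9921, whereas those of Stmn4 (3015 to 4314) span the WT range. T61340 is the highest TG library for all 4 genes and T60303 is the lowest for Stmn1, Stmn2 and Stmn4.

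The batches gave similar differences for Stmn1 and Stmn2. In batch A, the 3 TG libraries had 6138, 6690 and 8555 normalized counts of Stmn1, all below the 4 WT libraries at 9921, 10798, 11617 and 11671. The log2 fold change was -0.60 in batch A (adjusted p = 0.0182, edgeR) and -0.59 in batch B (adjusted p = 8.06e-08, edgeR). For comparison, 4.83% of genes tested were lower in TG in batch A alone and 19.8% in batch B alone.

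For Stmn2, the batch A TG libraries had 3614, 4348 and 5182 normalized counts against 5145, 6010, 6101 and 6120 in WT. The log2 fold change was -0.39 in batch A, where it did not pass the threshold (adjusted p = 0.0855, edgeR), and -0.44 in batch B (adjusted p = 3.97e-07, edgeR). In batch B, all 7 TG libraries were below all 7 WT libraries for Stmn1 and for Stmn2. How many of all genes tested were separated in this way within a single batch was not counted.

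Stmn3 passed the test in batch B (log2 fold change -0.21, adjusted p = 0.00136, edgeR), where 6 of 7 TG libraries were below every WT library. In batch A its log2 fold change was -0.09 (adjusted p = 0.750, edgeR), with TG libraries at 5989, 6786 and 9018 and WT libraries at 7156, 7677, 7850 and 8717 normalized counts. Stmn4 had log2 fold changes of 0.02 in batch A (adjusted p = 0.931, edgeR) and -0.10 in batch B (adjusted p = 0.121, edgeR).

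The genotype effect was not shown to differ between the batches for any stathmin. The interaction (batch A minus batch B) on the log2 scale was -0.04 ± 0.118 (standard error) for Stmn1, 0.02 ± 0.114 for Stmn2, 0.09 ± 0.122 for Stmn3 and 0.09 ± 0.117 for Stmn4. The adjusted p from edgeR was between 0.925 and 0.988. Over all genes this edgeR test called 0 of 18248 (0%), while 1030 had an unadjusted p under 0.05, and no other tool was run for it. Tardbp had the smallest p of all genes in this test (interaction -0.56, unadjusted p = 7.31e-06, adjusted p = 0.133, edgeR). For Stmn3, the 95% confidence interval of the interaction still reached from -0.17 to 0.34.

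**Figure D2:**
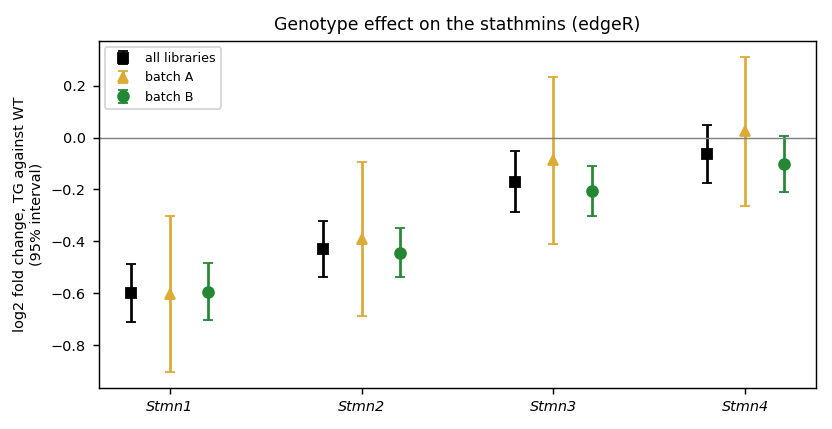
Log2 fold change of TG against WT (vertical axis) with its 95% confidence interval for each stathmin, from all libraries (squares), batch A (triangles) and batch B (circles) with edgeR. The intervals of Stmn1 and of Stmn2 lie below 0 in all 3 fits, and batch A, with 4 WT and 3 TG mice, has the widest intervals.

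When T60303 and T61340 were both left out, the log2 fold changes were -0.61 for Stmn1 (adjusted p = 2.50e-09), -0.43 for Stmn2 (adjusted p = 6.68e-08), -0.20 for Stmn3 (adjusted p = 9.67e-04) and -0.09 for Stmn4 (adjusted p = 0.127, all edgeR). Without T61340 alone, Stmn4 was lower in TG mice with a log2 fold change of -0.11 (adjusted p = 0.0471, edgeR). The library T61340 also differed from the other TG libraries along transcript length. Across 13374 genes, Spearman's rho between its deviation from the other TG libraries and exon length was -0.536, whereas the remaining 20 libraries lay between -0.195 and 0.386. Exon lengths were 1136 bases for Stmn3, 1916 for Stmn4, 1922 for Stmn1 and 5602 for Stmn2, against a median of 4518.5 over these genes. The part of this trend in the stathmin values was not tested. Each deviation was taken across both batches, and T61340 is of batch A. In that batch, rho of the 4 WT libraries lay between -0.192 and -0.121, and the other TG libraries were at -0.082 (T60303) and 0.275 (T61342). The value of T61340 can therefore include a difference between batches.

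The members differed from each other in their response, as the ratios within a library show, which do not depend on how libraries are scaled. The log2 ratio of Stmn1 to Stmn4 counts was between 1.41 and 1.81 in WT and between 0.89 and 1.22 in TG libraries, without overlap. The log2 ratio of Stmn2 to Stmn4 was between 0.51 and 0.86 in WT and between 0.13 and 0.43 in TG libraries, again without overlap. For these pairs T61340 and T60303 lay within the range of the other TG libraries. Ratios of other pairs of genes were not computed, so how many pairs would separate or pass in these data is not known.

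All 6 pairs were compared by 100000 permutations of genotype within batch, two-sided, with Benjamini-Hochberg adjustment over the 6 pairs. On the log2 scale, the difference by which Stmn1 fell more than Stmn4 was -0.53 (standard error 0.052, adjusted permutation p = 4.00e-05) and for Stmn1 and Stmn3 it was -0.43 (standard error 0.039, adjusted permutation p = 4.00e-05). For Stmn2 and Stmn4 it was -0.36 (standard error 0.044, adjusted permutation p = 4.50e-05) and for Stmn2 and Stmn3 it was -0.26 (standard error 0.031, adjusted permutation p = 4.00e-05). The members nearest in response were also separated. The log2 ratio of Stmn1 to Stmn2 was lower in TG by a difference of -0.17 (standard error 0.030, adjusted permutation p = 1.92e-04), with 8 of 10 TG libraries below every WT library. The log2 ratio of Stmn3 to Stmn4 was lower by a difference of -0.11 (standard error 0.032, adjusted permutation p = 0.00511), with 4 of 10 TG libraries below every WT library. The order of the response was therefore Stmn1, Stmn2, Stmn3 and Stmn4, each member separated from the next. Without T60303 and T61340 all 6 pairs passed the permutation test, with adjusted p from 1.65e-04 to 0.00961. In batch B alone all 6 pairs passed an exact permutation test, with adjusted p from 8.74e-04 to 0.0245. In batch A alone all 6 differences had the same sign but none passed, and the smallest p that 4 against 3 mice allow is 0.0286 before adjustment.

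**Figure D3:**
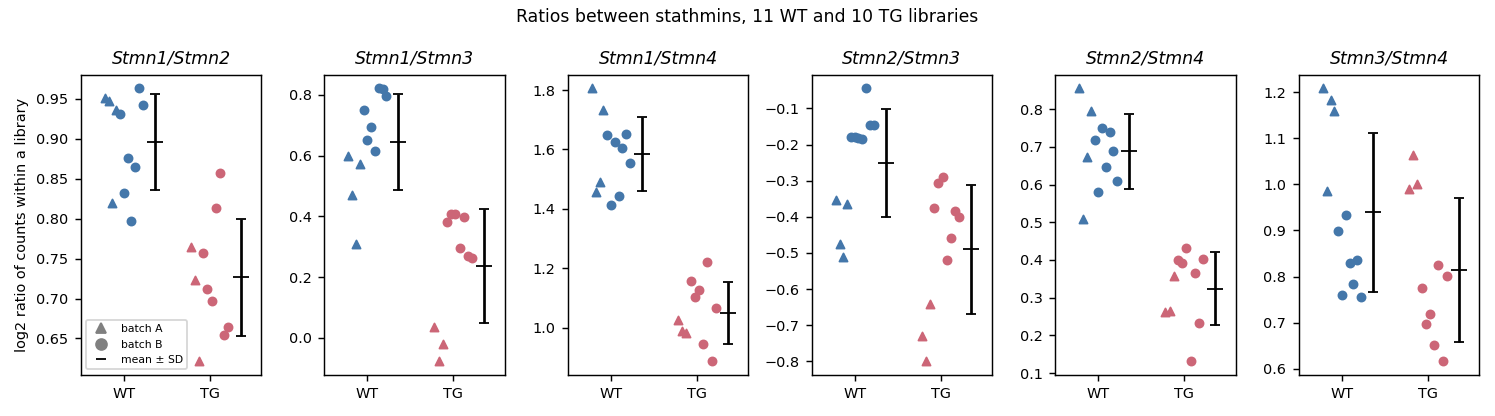
Log2 ratio of the counts of each pair of stathmins within a library (vertical axes, each panel with its own scale, not starting at 0) for 11 WT and 10 TG libraries. Triangles are batch A, circles are batch B, and bars give mean ± SD. The ratios of Stmn1 and of Stmn2 to Stmn4 separate the groups completely, while those to Stmn3 also differ between the batches.

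Levels were compared between genes only per kilobase of the RefSeq-matched transcript. In WT mice, Stmn1 had 10468 ± 670 normalized counts per kilobase, Stmn3 6264 ± 660, Stmn4 2888 ± 180 and Stmn2 2875 ± 170 (SD, n = 11). The levels of Stmn4 and Stmn2 in WT mice did not differ beyond their spread. In TG mice the levels were 6923 ± 722 for Stmn1, 5515 ± 919 for Stmn3, 2767 ± 302 for Stmn4 and 2138 ± 213 for Stmn2 (SD, n = 10). Without T60303 and T61340 they were 6921 ± 547, 5243 ± 392, 2744 ± 202 and 2143 ± 132 (SD, n = 8). Of the summed stathmin level per kilobase, Stmn1 made up 46.5% ± 1.78 in WT (SD, n = 11) and 40.0% ± 2.06 in TG mice (SD, n = 10). The share of Stmn4 was 12.9% ± 0.895 in WT and 16.0% ± 0.821 in TG mice, and that of Stmn3 was 27.8% ± 2.13 and 31.7% ± 2.62. This order depends on the length used. Per kilobase of all annotated exons of a gene, Stmn3 (6264) was above Stmn1 (5773), and Stmn4 (1931) was above Stmn2 (1064) in WT mice.

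Related rows of the table were checked too. Stmn1-rs2, a further row of the Stmn1 family, had 16 to 90 counts per library, 0.551% of the Stmn1 counts in WT and 0.456% in TG mice. It had 61.2 ± 14.9 normalized counts in WT (SD, n = 11) and 33.5 ± 14.6 in TG mice (SD, n = 10), which is -0.84 on the log2 scale (SE 0.172, adjusted p = 3.25e-04, edgeR). It did not pass in batch A alone (-0.80, adjusted p = 0.135) or with the mean of neuron markers as covariate (-0.35, adjusted p = 0.261, edgeR). RefSeq lists it as a pseudogene, and the search for shared stretches of 100 bases did not cover it, so whether reads were split between this row and Stmn1 was not tested. Stmnd1, which encodes a protein with a stathmin-like domain, had 0 to 7 counts per library and was not tested.

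Within genotype and batch, the 4 stathmins moved together across libraries. After subtraction of the mean of each genotype and batch, Pearson's r over 21 libraries was 0.851 for Stmn1 with Stmn2, 0.852 for Stmn2 with Stmn3 and 0.834 for Stmn3 with Stmn4. It was lowest for Stmn1 with Stmn4, at 0.581. The median r of any gene with a stathmin was between 0.037 and 0.045. Without T60303 and T61340 these values were lower (0.755, 0.702 and 0.643, and 0.215 for Stmn1 with Stmn4, 19 libraries). These are descriptions, since the points share a library, its depth and its scaling.

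The genes whose library-to-library deviation was most like that of each stathmin were found among 14583 genes with at least 50 counts on average, over 21 libraries. For Stmn1 they were Fabp3 (r = 0.914), which encodes a fatty acid binding protein, with its further row Fabp3-2, Nfu1, Gm10123 and Gnl1. Those for Stmn2 were Tuba1b (r = 0.924), which encodes an alpha-tubulin, Pgam1-ps2, Thoc3, Cul1 and Gm8910. Stmn3 was most like Ak1 (r = 0.959), which encodes an adenylate kinase, Cfl1, which encodes the actin-severing protein cofilin, Cend1, Gm12033 and Tcf25. Stmn4 was most like Ppp1r11 (r = 0.925), Gm10293, Fkbp4, Golga2 and Pi4k2a. Without T60303 and T61340 (19 libraries), Fabp3 (r = 0.845), Ak1 (r = 0.936) and Ppp1r11 (r = 0.864) were still the most alike for Stmn1, Stmn3 and Stmn4, while Tuba1b (r = 0.841) was at rank 6 for Stmn2. Of the 5 genes of each stathmin, 2 for Stmn1, 1 for Stmn2, 1 for Stmn3 and 3 for Stmn4 were still among its 5 most alike.

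The tubulins, which stathmins bind, were partly lower in TG mice. Of 12 tubulin genes tested, 7 were lower, 1 was higher and 4 did not pass, where 21.7% of all genes tested were lower and 23.0% were higher. The median log2 fold change was -0.18 for the tubulins and -6.75e-04 for all genes tested. The counts of the lists that follow stand beside these same shares, and no list was tested as a set. Tuba4a had 10999 ± 635 normalized counts in WT (SD, n = 11) and 7443 ± 1056 in TG mice (SD, n = 10), a log2 fold change of -0.56 (adjusted p = 9.96e-08, edgeR). Tubb4b (-0.43, adjusted p = 7.17e-07) and Tuba1a (-0.37, adjusted p = 4.51e-07, edgeR) were lower as well. Tubb6 was higher (log2 fold change 0.51, adjusted p = 0.0312, edgeR) at only 21.2 normalized counts in WT mice. Its call held in 12 of 21 fits with a library left out (largest adjusted p = 0.0613), and it did not pass within batch A (adjusted p = 0.241), within batch B (adjusted p = 0.132) or without T60303 and T61340 (adjusted p = 0.0596, edgeR). Tubb3, the neuron-specific beta-tubulin, had a log2 fold change of -0.06 and did not pass. Tubulin genes are similar in sequence, so reads may have been split between them.

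Of 16 microtubule-binding proteins of neurons, 9 were lower and 2 were higher, with a median log2 fold change of -0.12, and without T60303 and T61340 4 were lower and 2 were higher. Dclk1, a doublecortin-like kinase, fell by 0.56 on the log2 scale (adjusted p = 9.87e-09, edgeR). Map2, which bundles dendritic microtubules, fell by 0.44 (adjusted p = 2.42e-04, edgeR) and Map1b by 0.25 (adjusted p = 0.0135, edgeR), the latter not past the threshold without both libraries (-0.16, adjusted p = 0.0567). Map1b also missed it in batch A alone (-0.26, adjusted p = 0.431), with scaling by library size only (-0.18, adjusted p = 0.0719) and with the neuron marker mean as covariate (-0.27, adjusted p = 0.134, edgeR). Higher were Dpysl2 (CRMP2, which promotes microtubule assembly, 0.23, adjusted p = 0.0243) and Map6, which stabilizes microtubules (0.14, adjusted p = 0.00567, edgeR). The call of Dpysl2 was lost without T61340 (adjusted p = 0.0595, edgeR), and neither Dpysl2 (adjusted p = 0.165 in A and 0.0689 in B) nor Map6 (adjusted p = 0.145 in A and 0.0805 in B) passed within a single batch. Of 8 tested severing and depolymerizing proteins, which like the stathmins shorten microtubules, 1 was lower and 2 were higher, with a median of -0.02. Kif2a, a depolymerizing kinesin, fell by 0.35 (adjusted p = 4.00e-06, edgeR). Kif18a, a kinesin that acts at microtubule plus ends, was among the higher ones (0.48, adjusted p = 0.0242, edgeR), a call that was lost without T_70252 (adjusted p = 0.0544). Kif18a also did not pass in batch A alone (0.097, adjusted p = 0.862) or with the neuron marker mean as covariate (0.27, adjusted p = 0.469, edgeR).

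Of 14 kinases tested that phosphorylate stathmins, 10 were lower and 1 was higher, with a median log2 fold change of -0.38 (21.7% of all genes tested were lower). Cdk1 was not tested because of low counts. Mapk9 (JNK2) had 4834 ± 156 normalized counts in WT (SD, n = 11) and 2004 ± 244 in TG mice (SD, n = 10), a log2 fold change of -1.28 (adjusted p = 5.00e-15, edgeR). Camk4, a calcium-dependent kinase, fell by 1.07 (adjusted p = 1.38e-11, edgeR) and Pak1, a kinase downstream of Rac, by 0.83 (adjusted p = 1.37e-11, edgeR). The catalytic subunit gene Prkaca of protein kinase A was higher (0.19, adjusted p = 0.00502, edgeR). Phosphorylation of the stathmin proteins was not measured.

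Genes of axon maintenance and growth included both directions. Of 7 genes around DLK signalling, NMNAT2 and SARM1, 2 were lower and 1 was higher (median -0.04), where 21.7% of all genes tested were lower and 23.0% were higher. Fbxo45 (-0.41, adjusted p = 1.35e-07) and Mycbp2 (-0.32, adjusted p = 0.00353, edgeR), which encode parts of one ubiquitin ligase complex, were lower, and Map3k12 (DLK) was higher (0.13, adjusted p = 0.00540, edgeR). Of 12 growth-associated genes tested, 3 were lower and 4 were higher (median -0.07), near the shares of all genes tested (21.7% lower and 23.0% higher). Gap43 (-0.38, adjusted p = 2.77e-06) and Basp1 (-0.36, adjusted p = 7.86e-06, edgeR), which encode growth cone proteins, and Jun (-0.58, adjusted p = 2.82e-08, edgeR) were lower. Basp1 did not pass in batch A alone (-0.40, adjusted p = 0.0773) or with the neuron marker mean as covariate (-0.14, adjusted p = 0.0835, edgeR). Atf3, an injury-induced transcription factor, rose from 18.3 ± 6.91 normalized counts in WT (SD, n = 11) to 117 ± 57.2 in TG mice (SD, n = 10), a log2 fold change of 2.63 (adjusted p = 2.35e-09, edgeR). L1cam (0.51, adjusted p = 1.89e-06) and Klf6 (0.40, adjusted p = 1.85e-05, edgeR) were also higher.

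**Figure D4:**
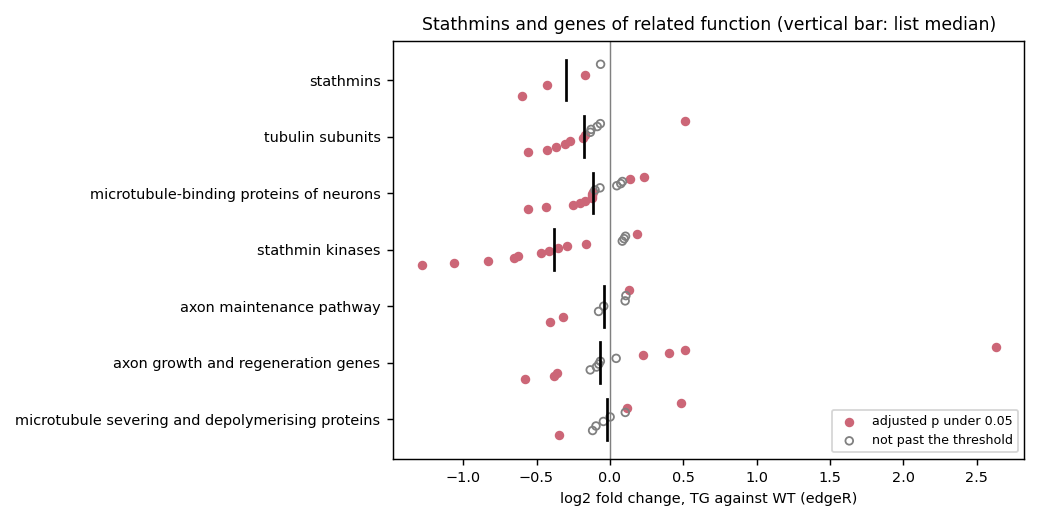
Log2 fold change of TG against WT (horizontal axis, edgeR, 11 WT and 10 TG libraries) for the stathmins and for genes of related function, each point being a gene. Filled points passed an adjusted p of 0.05, and the vertical bar marks the median of a list, which is -0.38 for the kinases and -0.18 for the tubulins. Atf3 at 2.63 is the point farthest to the right.

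Markers of the cell types that could hold the stathmins were followed beside them. Of 10 neuron markers, 6 were lower and 1 was higher in TG mice (median -0.28). Snap25 (-0.75, adjusted p = 1.13e-11), Nrgn (-0.72, adjusted p = 2.67e-07) and Syt1 (-0.53, adjusted p = 2.83e-08), genes of the synapse, were lower. The other lower markers were Gad1 (-0.45, adjusted p = 3.05e-05), Gad2 (-0.32, adjusted p = 0.0413) and Syn1 (-0.25, adjusted p = 0.00576, edgeR). The markers that did not pass were Rbfox3 (-0.10, adjusted p = 0.189), Slc17a7 (0.06, adjusted p = 0.561) and Eno2 (0.05, adjusted p = 0.498, edgeR), and Thy1 was higher (0.44, adjusted p = 3.95e-06, edgeR). The mean log2 CPM (counts relative to the library total) of these markers was between 9.23 and 9.52 in WT and between 8.85 and 9.33 in TG libraries, lowest in T60303 and highest among TG libraries in T61340 at 9.33. Its r with the stathmins, within genotype and batch over 21 libraries, was 0.575 for Stmn1, 0.761 for Stmn2, 0.864 for Stmn3 and 0.733 for Stmn4 (0.270, 0.50, 0.806 and 0.528 without T60303 and T61340). With this mean as a further covariate, the log2 fold change was -0.44 for Stmn1 (adjusted p = 8.74e-05) and -0.22 for Stmn2 (adjusted p = 0.00674), both still past the threshold (edgeR). Stmn3 turned to 0.10 (adjusted p = 0.170) and Stmn4 to 0.15 (adjusted p = 0.0643, edgeR), neither past it. As several of these markers themselves differed between the genotypes, and several of the lower ones are synaptic genes, neuron content, synaptic gene expression and genotype cannot be told apart by this fit.

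Stmn1 is also high in dividing and newborn cells. Of 9 tested markers of newborn neurons and progenitors, 2 were lower, near the 21.7% of all genes tested that were lower. Only 1 was higher, where 23.0% of all genes tested were, and the median was -0.09. Neurod1 (-0.58, adjusted p = 4.32e-05) and Hes5 (-0.36, adjusted p = 0.00160) were lower and Sox4 was higher (0.17, adjusted p = 0.0333, edgeR). In batch A alone neither Neurod1 (-0.63, adjusted p = 0.0532) nor Hes5 (-0.27, adjusted p = 0.259) passed, and Hes5 did not pass with the neuron marker mean as covariate (-0.30, adjusted p = 0.112, edgeR). The Sox4 call held in 13 of 21 fits with a library left out (largest adjusted p = 0.0668) and was lost in batch A alone (0.09, adjusted p = 0.733, edgeR). Their summed level was 8751 to 11892 normalized counts in WT and 8054 to 10659 in TG libraries, most of it from Tubb3 and Tbr1, which mature neurons express too. Of 8 proliferation markers, Cdk1, Ccnb1, Aurkb and Pbk were too low to test, and of the 4 tested Mki67 (0.93, adjusted p = 5.67e-04) and Top2a (0.75, adjusted p = 6.36e-04, edgeR) were higher in TG mice. Neither passed in batch A alone (adjusted p = 0.118 and 0.108) or with the neuron marker mean as covariate, where they were at 0.36 (adjusted p = 0.353) and 0.35 (adjusted p = 0.289, edgeR). Their summed level was 37.3 to 109 normalized counts in WT and 77.5 to 131 in TG libraries. Of 8 markers of oligodendrocyte precursors and immature oligodendrocytes, 0 were lower and 2 were higher, near the 23.0% of all genes tested that were higher. These were Gpr17 (0.22, adjusted p = 0.00567) and Bmp4 (0.34, adjusted p = 0.0174, edgeR), of which Bmp4 was lost without batch as covariate (adjusted p = 0.124), in each batch alone (0.141 in A and 0.128 in B) and without T60303 and T61340 (adjusted p = 0.0530).

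Markers of other cell types were counted in the same way. None of 8 mature oligodendrocyte markers passed the test (0 of 8, edgeR and DESeq2). Of 6 astrocyte markers, 5 were lower, led by Slc1a2 (-0.32, adjusted p = 2.66e-04), Gja1 (-0.27, adjusted p = 2.01e-04) and Aqp4 (-0.26, adjusted p = 0.00575, edgeR). In batch A alone Slc1a2 (adjusted p = 0.181), Gja1 (adjusted p = 0.0561) and Aqp4 (adjusted p = 0.0886) did not pass. Aqp4 also missed the threshold with scaling by library size only (-0.18, adjusted p = 0.0527, edgeR). Of 6 microglia markers, 1 was lower (P2ry12, -0.35, adjusted p = 2.62e-05) and 4 were higher, among them Aif1 at 0.47 (adjusted p = 0.00768) and Tmem119 at 0.18 (adjusted p = 0.00921, edgeR), and without T60303 and T61340 1 was lower and 1 was higher, with Aif1 (adjusted p = 0.0809) and Tmem119 (adjusted p = 0.0558) no longer past the threshold. Of 6 endothelial markers, Kdr (-0.27, adjusted p = 0.0152) and Flt1 (-0.17, adjusted p = 0.00620, edgeR) were lower, but Kdr did not pass without both libraries (adjusted p = 0.105), and neither gene passed within a single batch (adjusted p from 0.0689 to 0.128) or with scaling by library size only (adjusted p = 0.0700 for Kdr and 0.0938 for Flt1, edgeR). The part of these markers in the stathmin values was not tested.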

How the data were processed

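RNA of 21 mice was sequenced at BGI as paired-end reads of 100 bp, and the methods give RIN values above 7. The tissue is called neocortex here after the sample labels, whereas the study's methods say brain cortex and a legend for groups of this size says hippocampus, a conflict that was not resolved. After alignment to GRCm38, the authors deposited unnormalized whole-number counts for each gene symbol. The submitters' processing notes name HISAT, HISAT2, Bowtie, Bowtie2, RSEM and mm10, without roles or versions. The strand setting and the program that made this table are not given in the sources used here. Groups and batches were taken from the labels, and 0 columns were left unmapped.

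The edgeR 4.0.16 package in R 4.3.3 was used, after filtering by expression (minimum count 10, minimum total 15) and TMM normalization, by the quasi-likelihood test with genotype and batch and Benjamini-Hochberg adjustment over 18248 genes (threshold 0.05). The standard error was derived from the fold change and F. To obtain normalized counts, each library was scaled to the average TMM-adjusted library size. Log2 CPM used a prior count of 2 and ratios 0.5 added counts. Intervals cover 95% and reflect variation between mice. The methods name DESeq2, which was an alternative here, since edgeR was chosen for counts. Lists were described by counts and medians, without a set test. The procedures were tested on simulated data.

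The members and the gene lists were chosen with earlier results of these data known. Named were the 4 stathmins with their related rows, Tardbp, up to 3 genes per list and direction with the largest change past the threshold, and the 5 most alike genes per stathmin. Some genes that meet this rule are not reported here. Tubb3, Tbr1, Rbfox3, Slc17a7, Eno2, Gad1, Gad2, Syn1, the untested proliferation markers and Cdk1 were named after their values were seen. Alternatives were DESeq2 1.42.0 with and without batch, limma-voom (limma 3.58.1), edgeR without batch, RLE, library-size and upper-quartile scaling, no filter, at least 10 counts in every library, each batch alone, the level of Xist or the neuron marker mean as covariate, no rows of further copies, each library left out, and for the ratios no pseudocount and permutation over all libraries. Leaving out T60303 and T61340 together was added after the data were seen. Sequences and positions are from GENCODE M21, matched to RefSeq transcripts for 4 of 4 genes.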

Additional observations from a re-analysis of the deposited data

Results flagged for a closer look

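Within groups of 4 to 10 libraries, 22 groups of stathmin values were examined for a library set apart by Dixon's criterion, which chance alone meets in about 1 in 20 groups, and 2 met it. Among the 4 WT libraries of batch A, T61333 had the lowest Stmn2 level at 7.91 log2 CPM. Among the 10 TG libraries, T61340 had the highest Stmn3 level at 8.72 log2 CPM. That group pooled the batches, and T61340 belongs to batch A, whose 3 TG libraries had a mean of 7264 normalized counts of Stmn3 against 5837 in the 7 of batch B, so the gap includes a difference between batches, and 3 libraries are too few for the criterion within batch A. The latter is the library whose Tardbp level lay within the WT range.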

How the results depend on the processing

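Stmn1 and Stmn2 kept their direction in all alternatives, and Stmn1 passed the threshold in all of them. Over libraries left out in turn, the log2 fold change ranged from -0.64 to -0.57 for Stmn1, from -0.47 to -0.40 for Stmn2, from -0.23 to -0.14 for Stmn3 (all past the threshold) and from -0.11 to -0.037 for Stmn4, which passed only without T61340. Stmn2 missed the threshold in batch A alone (-0.39). Stmn3 missed it in edgeR without batch (-0.18), with scaling by library size only (-0.094, adjusted p = 0.149), without a filter (-0.16, adjusted p = 0.0538) and in batch A (-0.087), and was reversed with the neuron marker mean as covariate (0.10). Stmn4 was reversed with library size only (0.012), in batch A (0.025) and with the neuron marker mean (0.15). The cause was not tested, other than that batch A holds fewer mice.

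The interaction ranged from -0.19 to 0.057 for Stmn1, from -0.12 to 0.14 for Stmn2, from -0.10 to 0.21 for Stmn3 and from -0.064 to 0.20 for Stmn4 with single libraries left out. In batch A alone, 2195 genes passed instead of 8154, and the log2 ratios were -0.21 (Stmn1 to Stmn2), -0.51 (Stmn1 to Stmn3), -0.62 (Stmn1 to Stmn4), -0.30 (Stmn2 to Stmn3), -0.41 (Stmn2 to Stmn4) and -0.12 (Stmn3 to Stmn4), with exact permutation p between 0.0571 and 0.171 after adjustment. Scaling by library size only moved the median log2 fold change of all genes to 0.076 and the share of calls that were lower from 48.6% to 32.1%.

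No paired analysis was possible because the labels give each mouse its own number. List counts that moved by over 1.5 times, beside the main count, were as follows. With library size only, microtubule-binding proteins had 6 (main 11), mature oligodendrocytes 1 (main 0), astrocytes 3 (main 5) and endothelial cells 0 (main 2). In batch A alone, tubulins had 1 (main 8), microtubule-binding proteins 1 (11), kinases 7 (11), axon maintenance 0 (3), severing proteins 1 (3), neurons 2 (7), newborn neurons 1 (3), proliferation 0 (2), precursors 0 (2), astrocytes 0 (5), microglia 2 (5) and endothelial cells 0 (2). In batch B alone, microtubule-binding proteins had 7 (11), precursors 1 (2), microglia 3 (5) and endothelial cells 0 (2). Without T60303 and T61340, microtubule-binding proteins had 6 (11), precursors 1 (2), microglia 2 (5) and endothelial cells 1 (2). Over 47 other named genes, 628 of 702 values under other settings and 953 of 987 with a library left out kept direction and side of the threshold, and 0 reversed.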
